A study of Homo sapiens with 18 samples.

Results

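The genes described here are 9 Krüppel-like factor genes, KLF3, KLF6, KLF7, KLF9, KLF10, KLF11, KLF12, KLF13 and KLF16, taken from the read count table by matching their symbols to Ensembl identifiers. They are 9 of the 61860 genes in that table. They were chosen by family membership, with earlier results of these data known; KLF2, KLF4, KLF5 and KLF17, which are often read as markers of naive pluripotency, were kept apart. The cells were H1, an established line of human embryonic stem cells grown without serum or feeder cells. All of them carried a lentivirus with a GFP marker and a short hairpin RNA, either a negative control sequence or one against NAT10, were enriched for GFP and were expanded under puromycin. NAT10 encodes the acetyltransferase that makes N4-acetylcytidine (ac4C) in RNA. Each genotype was sampled at 0, 1.5 and 3.5 h of actinomycin D, which blocks transcription, so that there were 6 groups of 3 libraries and 18 libraries in all. The question set by the design was how the half-lives of transcripts differ when NAT10 is depleted.

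Krüppel-like factors are transcription factors that bind GC-rich and CACCC-type DNA through zinc fingers at the C terminus, the same class of site that the SP factors bind. The members differ in the N-terminal part. KLF6 and KLF7 act mainly as activators, KLF3 and KLF12 recruit the CtBP corepressors, and KLF9, KLF10, KLF11, KLF13 and KLF16 recruit the SIN3A corepressor. Many KLF transcripts are short-lived and several are made within minutes to hours of a signal: KLF10 and KLF11 were first described as early genes induced by TGF-beta, and KLF6 responds early to serum and injury.

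Total counts ran from 15037492 to 15519197 per library, spike-ins included. The NAT10 transcript stood at 208.7 to 250.3 CPM (counts scaled to a common library size by the TMM method of edgeR) in the 9 control libraries and at 17.2 to 24.1 in the 9 knockdown libraries. All 8 listed markers of pluripotent cells were detected in every group, and their summed level at 0 h was 9849 to 10422 CPM in controls and 8384 to 8840 in knockdowns. Of these 8, 0 were called higher in the knockdown at 0 h and 5 lower, where 23.8% of all genes were higher and 28.3% lower. Listed markers of fibroblasts and stroma summed to 687 to 747 CPM in controls and 1380 to 1825 in knockdowns at 0 h, with 4 of the 6 that could be tested higher and 1 lower; the defining marker LUM was at 0 in both groups and DCN was at 0 in the controls. Markers of neural ectoderm summed at 0 h to 517 to 658 CPM and 1163 to 1225 CPM, with 3 of 5 tested higher. Markers of trophoblast summed to at most 3.85 CPM in controls and 8.80 in knockdowns at 0 h, and to at most 5.18 and 10.6 at 3.5 h. Those of mesoderm and endoderm summed to at most 2.11 in either. The part of these shifts in the results below was not tested. In bulk RNA, fewer cells of a type and less RNA per cell cannot be told apart. Replicate 1 of the knockdown at 0 h stood apart from the other libraries of its group. Its chi-square per degree of freedom was 15.1 and 21.6 against them, beside 2.13 between those other libraries and 1.39 to 6.99 within the other groups. Some of the results that rest on replicate 1 are also given without it.

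Levels were read on a pair of scales. TMM scaling sets a gene against the typical transcript of its library. Scaling to the summed counts of the ERCC spike-in RNAs sets it against a fixed amount of added RNA, which here was added to purified RNA and so does not measure RNA per cell. Counts of genes per ERCC count averaged 970 ± 177, 644 ± 29.8 and 493 ± 78.3 (SD, n = 3) in controls at 0, 1.5 and 3.5 h, and 550 ± 101, 403 ± 59.5 and 216 ± 28.5 in knockdowns. The median gene therefore differed between genotypes by -0.04, 0.03 and 0.08 on the log2 scale under TMM and by -0.71, -0.52 and -0.98 under ERCC scaling. Replicates varied more on the second scale, with a biological coefficient of variation of 16.3% against 6.29% with TMM, so ERCC-scaled differences carry the larger errors.

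The promoters of KLF6 and KLF11, which had the largest increases among the members at 0 h, and of KLF16, the one member called lower under TMM scaling at 0 h, are shown so that the GC boxes these factors themselves bind can be seen. The sequences are from RefSeq (GRCh38.p14), on the strand of the gene, 5′ to 3′, within 250 bases before a transcript start and trimmed where an annotated exon begins. Capitals mark GGGCGG or its complement CCGCCC, with overlapping copies joined. Symbols matched a RefSeq promoter for 7 of the members. The KLF11 stretch lies before a start inside the annotated gene, which begins at chr2:10042849. Another RefSeq start of KLF11 kept 0 bases after trimming, so the sequence shown is not the only promoter of that gene.
KLF6, chr10:3785282-3785459, minus strand: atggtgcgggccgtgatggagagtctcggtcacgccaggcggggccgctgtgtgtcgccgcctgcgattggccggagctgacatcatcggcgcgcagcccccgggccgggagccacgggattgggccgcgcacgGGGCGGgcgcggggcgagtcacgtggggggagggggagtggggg
KLF11, chr2:10043971-10044174, plus strand: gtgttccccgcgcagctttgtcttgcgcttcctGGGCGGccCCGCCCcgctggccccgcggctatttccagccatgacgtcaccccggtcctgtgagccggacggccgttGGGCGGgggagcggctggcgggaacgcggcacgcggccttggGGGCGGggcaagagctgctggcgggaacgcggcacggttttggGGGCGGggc
KLF16, chr19:1863580-1863829, minus strand: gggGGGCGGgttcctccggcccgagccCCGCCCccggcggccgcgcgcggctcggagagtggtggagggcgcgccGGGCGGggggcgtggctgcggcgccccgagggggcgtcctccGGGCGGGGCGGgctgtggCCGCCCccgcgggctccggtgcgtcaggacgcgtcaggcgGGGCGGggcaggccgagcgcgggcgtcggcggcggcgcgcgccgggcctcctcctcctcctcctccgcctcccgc

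Counting both strands, GGGCGG was present 1 time in the 178 bases of the KLF6 promoter, 5 times in the 204 bases of KLF11 and 7 times in the 250 bases of KLF16. Of 35116 RefSeq promoters cut to the same lengths, 30.9%, 35.8% and 42.6% held it at least once. At least 5 copies were held by 2.02% of promoters at 204 bases and by 4.15% at 250 bases. KLF11 and KLF16, which differed in opposite directions, thus both held several copies, and a match describes these letters only.

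At 0 h, before actinomycin D, KLF16 was the most abundant member in controls per length of transcript, at 10.5 ± 1.34 CPM per kb (SD, n = 3). KLF7 followed at 3.26 ± 0.0383, KLF12 at 2.37 ± 0.142, KLF3 at 2.04 ± 0.269, KLF10 at 1.44 ± 0.109, KLF6 at 1.42 ± 0.198 and KLF11 at 1.16 ± 0.113 CPM per kb. KLF13 at 0.148 ± 0.024 and KLF9 at 0.063 ± 0.033 CPM per kb were the scarcest. The libraries of KLF12 and KLF3 overlapped, as did those of KLF10 and KLF6 and of KLF6 and KLF11; the other neighbours in this order did not. In knockdowns the order was KLF16, KLF7, KLF6, KLF11, KLF3, KLF10, KLF12, KLF9 and KLF13. There KLF16 at 6.25 ± 1.05 and KLF7 at 5.50 ± 0.305 CPM per kb overlapped, and KLF6 had moved up to 4.15 ± 0.866 and KLF11 to 3.09 ± 0.355 CPM per kb. The knockdown libraries of KLF11 and KLF3 also overlapped, as did those of KLF3 and KLF10 and of KLF9 and KLF13.

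**Figure D1:**
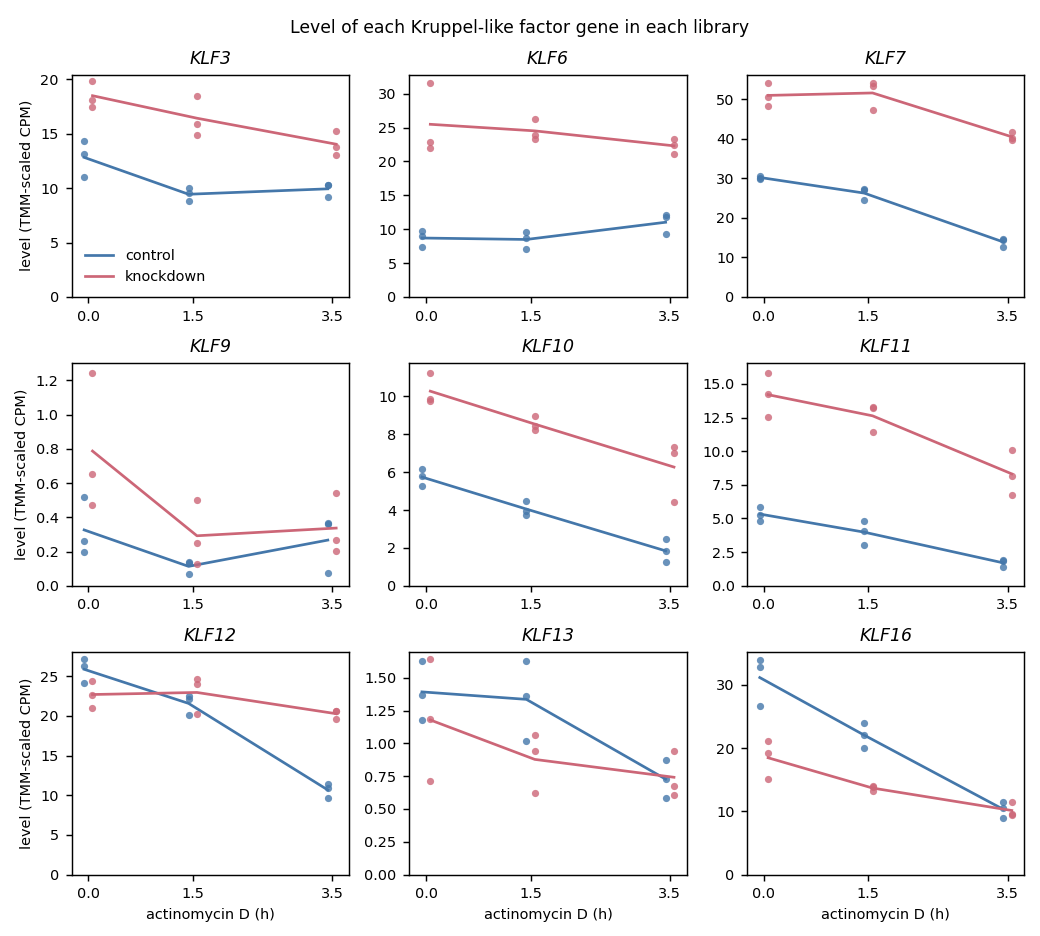
Level of each of the 9 genes (y axis, TMM-scaled CPM, a linear scale from 0 that differs between panels) against hours of actinomycin D (x axis); points are libraries, lines join the means of 3 libraries, and blue is control and red NAT10 knockdown. KLF3, KLF6, KLF7, KLF10 and KLF11 lie higher in the knockdown at every time, KLF16 starts lower and meets the control at 3.5 h, and KLF12 separates only at 3.5 h.

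Relative to the typical transcript, 5 of the 8 members that passed the filter on low counts were higher in the knockdown at 0 h and 1 was lower (edgeR's quasi-likelihood test, Benjamini-Hochberg adjusted p under 0.05 over 16760 genes). Over all genes tested, 23.8% were higher and 28.3% lower. The median log2 difference was 0.64 over the 8 members and -0.04 over all genes. At 1.5 h the counts were again 5 and 1, beside 28.4% and 26.2% of all genes, and at 3.5 h they were 6 and 0, beside 35.0% and 26.4%. Under ERCC scaling 2 members were higher and 3 lower at 0 h, where 5.58% of all genes were higher and 64.1% lower. At 1.5 h these numbers were 4 and 2 (8.20% and 49.7% of all genes), and at 3.5 h they were 3 and 3 (4.71% and 71.7%). KLF11 was the one member called higher at all 3 times under both scalings, and KLF16 was called lower under both at 0 and 1.5 h.

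Among the activators, KLF6 (ENSG00000067082, chr10:3775996-3785281 on hg38, minus strand) was the member with the largest difference at 0 h. Its 3 control libraries had 9.75, 7.37 and 8.99 CPM and its 3 knockdown libraries 31.6, 22.04 and 22.8 CPM. Every knockdown library was thus above every control, and replicate 1 was the highest of them. The difference was 1.55 ± 0.14 on the log2 scale (SE, adjusted p = 1.46e-09), higher than that of 95.6% of all genes, and it was 1.36 without that replicate (adjusted p = 9.44e-13). It was 1.529 at 1.5 h and 1.02 at 3.5 h, when control libraries had 12.03, 9.30 and 11.8 CPM and knockdowns 22.4, 23.4 and 21.2. Under ERCC scaling it was 0.90 at 0 h and 0.9984 at 1.5 h, both called, and -0.02 at 3.5 h (adjusted p = 0.921).

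KLF7 (ENSG00000118263, chr2:207074137-207167267, minus strand), the closest relative of KLF6 and a factor of neuronal differentiation, stood at 30.2, 30.6 and 29.9 CPM in controls and at 54.0, 48.4 and 50.5 CPM in knockdowns at 0 h. The groups did not overlap, and the difference of 0.75 ± 0.07 (adjusted p = 6.07e-09) was 0.97 at 1.5 h and 1.54 at 3.5 h. By 3.5 h the controls had fallen to 14.4, 14.6 and 12.6 CPM while knockdowns held 39.6, 40.1 and 41.7 CPM. Against the spike-in the difference was 0.09 at 0 h (adjusted p = 0.681) and it passed the threshold at 1.5 h (0.44) and 3.5 h (0.48).

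Of the members that bind CtBP, KLF3 (ENSG00000109787, chr4:38664196-38701042, plus strand), a repressor best known from blood and fat cells, had 11.0, 13.2 and 14.3 CPM in controls and 19.9, 18.1 and 17.5 CPM in knockdowns at 0 h. All knockdown libraries were higher, by 0.53 ± 0.10 (adjusted p = 1.40e-04), and they were higher again at 1.5 h (0.80) and 3.5 h (0.50). Under ERCC scaling the sign turned at 0 h (-0.11, adjusted p = 0.626) and at 3.5 h, where KLF3 was called lower (-0.56, adjusted p = 0.0127), against a median of all genes of -0.98. KLF3-AS1 on the opposite strand shares 266 exonic bases with KLF3; it held 11 to 27 counts per library beside 126 to 336 for KLF3, and the strand setting of the counting is not given in the sources used here.

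KLF12 (ENSG00000118922, chr13:73686089-73995056, minus strand), a repressor of the AP-2alpha gene, behaved otherwise. At 0 h its levels of 26.3, 24.1 and 27.2 CPM in controls and 24.5, 21.0 and 22.6 CPM in knockdowns overlapped, and the difference of -0.19 ± 0.09 did not pass (adjusted p = 0.0673). Without replicate 1 of the knockdown it was -0.25 (adjusted p = 0.0142), and without replicate 2 of the control -0.24 (adjusted p = 0.0442). At 3.5 h controls had 9.70, 11.4 and 10.9 CPM and knockdowns 19.6, 20.6 and 20.6 CPM. The groups no longer overlapped, and KLF12 was higher by 0.93 (adjusted p = 2.16e-08). Under ERCC scaling it was lower at 0 h (-0.85, adjusted p = 9.14e-05) and did not pass at 3.5 h (-0.15, adjusted p = 0.531).

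Among the members that bind SIN3A, the paralogues KLF10 and KLF11 moved in the same direction. KLF11 (ENSG00000172059, chr2:10042849-10054836, plus strand) had 4.84, 5.87 and 5.28 CPM in controls and 15.8, 14.2 and 12.6 CPM in knockdowns at 0 h. There was no overlap, and the log2 difference was 1.41 ± 0.14 (adjusted p = 1.58e-08), above that of 94.7% of all genes. At 3.5 h the controls had 1.90, 1.82 and 1.38 CPM, from 70 counts in all, and the knockdowns 10.1, 8.14 and 6.74 CPM. The difference had grown to 2.29 (adjusted p = 7.85e-10), and it was 0.78, 1.11 and 1.25 at the 3 times under ERCC scaling, each past the threshold.

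KLF10 (ENSG00000155090, chr8:102648779-102655902, minus strand) rose from 6.15, 5.29 and 5.80 CPM in controls to 11.3, 9.87 and 9.74 CPM in knockdowns at 0 h. The difference was 0.84 ± 0.15 (adjusted p = 4.66e-05), then 1.07 at 1.5 h and 1.76 at 3.5 h, with no overlap at any time. Against the spike-in it was 0.18 at 0 h (adjusted p = 0.481) and was called at 1.5 h (0.53) and 3.5 h (0.70).

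KLF16 (ENSG00000129911, chr19:1852399-1863568, minus strand), a repressor that competes for GC-rich sites, was the one member called lower at 0 h under TMM scaling; KLF12 and KLF13 were called lower as well under ERCC scaling. Its controls had 32.9, 33.9 and 26.6 CPM and its knockdowns 15.1, 19.1 and 21.2 CPM at 0 h, a difference of -0.75 ± 0.11 (adjusted p = 5.55e-06) with no overlap; 5.53% of genes lay lower. It was -0.69 at 1.5 h, and at 3.5 h both genotypes stood near 10 CPM (10.3 ± 1.28 in controls, 10.1 ± 1.22 in knockdowns) and the difference was -0.02 (adjusted p = 0.896). Under ERCC scaling KLF16 was lower at all 3 times, by -1.45, -1.23 and -1.09.

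KLF13 (ENSG00000169926, chr15:31326855-31435665, plus strand), known for its part in T-cell and heart gene expression, was scarce, with 8 to 28 counts per library. Its levels at 0 h were 1.18, 1.37 and 1.63 CPM in controls and 0.710, 1.18 and 1.64 CPM in knockdowns, which overlapped, and the difference of -0.24 ± 0.27 did not pass (adjusted p = 0.492). It did not pass at 1.5 h (-0.60, adjusted p = 0.0960) or 3.5 h (0.03, adjusted p = 0.956), and was called lower under ERCC scaling at all 3 times (-0.93, -1.14 and -1.01). KLF9 (ENSG00000119138, chr9:70384597-70414624, minus strand), a target of glucocorticoid and thyroid hormone, had 15 counts over the 3 controls and 40 over the 3 knockdowns at 0 h and did not pass the filter. Its libraries overlapped at every time; without the filter its difference at 0 h was 1.27 ± 0.44 (adjusted p = 0.0215), and at 1.5 and 3.5 h it did not pass. At this depth smaller differences of KLF9 and KLF13 were not detectable.

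**Figure D2:**
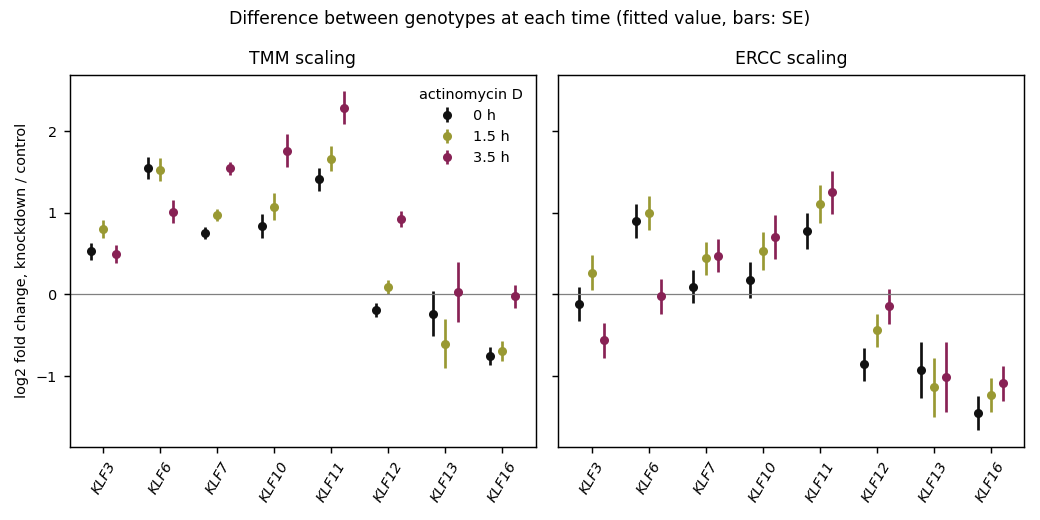
Log2 fold change of knockdown over control (y axis) for the 8 members tested (x axis) at 0, 1.5 and 3.5 h of actinomycin D, with TMM scaling on the left and ERCC scaling on the right; points are fitted values from 3 libraries a group and bars are SE. KLF7, KLF10, KLF11 and KLF12 climb with time on the left, and KLF6 drops from 1.55 to 1.02. On the right KLF7, KLF10 and KLF11 lie above 0 at each time, and KLF12, KLF13 and KLF16 below it.

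Other genes of the pathway were read from lists for the KLF and SP family, for cofactors and ubiquitin ligases, and for the TGF-beta response. Of 18 other KLF and SP genes 10 could be tested at 0 h under TMM, of which 3 were higher (KLF5, KLF4 and SP6) and 3 lower (SP8, SP3 and SP1); under ERCC scaling 2 were higher and 7 lower. Among all genes 23.8% were higher and 28.3% lower under TMM, and 5.58% and 64.1% under ERCC scaling, so that 7 of 10 is near the background. The median difference of the 10 was -0.20 under TMM. KLF5, one of the factors of naive pluripotency, rose from 1.02 ± 0.191 to 4.74 ± 0.855 CPM (log2 difference 2.203, adjusted p = 2.92e-09), and KLF4 from 0.674 ± 0.228 to 2.40 ± 0.685 CPM (1.82, adjusted p = 9.72e-06). SP8, a factor of limb and forebrain patterning, fell from 2.59 ± 0.253 to 0.531 ± 0.158 CPM (-2.27, adjusted p = 6.02e-07). The widely expressed SP3 fell from 117.5 ± 6.09 to 81.6 ± 8.32 CPM (-0.53, adjusted p = 1.08e-06). SP1 was 121.4 ± 2.41 and 108.3 ± 6.05 CPM, a difference of -0.16 (adjusted p = 0.0167) that did not pass with either replicate 1 or 2 of the control, or replicate 2 or 3 of the knockdown, left out (adjusted p of 0.0520 to 0.106), nor without the filter on low counts (adjusted p = 0.155) or with only the compared groups (adjusted p = 0.239).

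All 16 listed partners were tested, and 3 were higher and 7 lower at 0 h under TMM, beside 23.8% and 28.3% of all genes. Under ERCC scaling 0 were higher and 12 lower, beside 5.58% and 64.1% of all genes. The median difference of the 16 was -0.15 under TMM. SIN3A, the corepressor of the KLF10 and KLF11 group, fell from 116.5 ± 6.57 to 96.4 ± 2.22 CPM (-0.27, adjusted p = 3.82e-04) and at 3.5 h was called higher under TMM (1.11, adjusted p = 3.51e-12) but not under ERCC scaling (0.054, adjusted p = 0.813). Its paralogue SIN3B rose from 115.9 ± 3.5 to 159.3 ± 20.5 CPM (0.46, adjusted p = 4.65e-06; -0.23 under ERCC scaling, adjusted p = 0.286). The deacetylase HDAC2 fell from 481.1 ± 14.3 to 288.0 ± 29.5 CPM (-0.74, adjusted p = 1.47e-10) and the histone-binding RBBP7 from 195.5 ± 7.15 to 140.7 ± 11.9 CPM (-0.47, adjusted p = 1.68e-07). Of the corepressors of KLF3 and KLF12, CTBP2 fell from 183.0 ± 9.33 to 158.6 ± 8.46 CPM (-0.21, adjusted p = 0.00137), a call that was lost with only the compared groups in the fit (-0.16, adjusted p = 0.119). CTBP1, at 106.4 ± 1.46 and 105.2 ± 10.0 CPM, did not pass under TMM (-0.02 ± 0.06, adjusted p = 0.847) and was called lower under ERCC scaling (-0.70, adjusted p = 8.74e-04).

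Of 15 listed genes of the TGF-beta response 14 were tested, with 6 higher and 2 lower at 0 h under TMM and 1 higher and 8 lower under ERCC scaling. The shares of all genes were 23.8% and 28.3% under TMM and 5.58% and 64.1% under ERCC scaling, and the median difference of the 14 was 0.14 under TMM. CCN2, the connective tissue growth factor gene, rose from 64.1 ± 2.66 to 116.8 ± 0.564 CPM (0.86, adjusted p = 8.74e-12), and TGIF1, a SMAD corepressor, from 33.3 ± 0.848 to 50.6 ± 1.32 CPM (0.60, adjusted p = 5.26e-07). Under ERCC scaling CCN2 (0.20, adjusted p = 0.352) and TGIF1 (-0.06, adjusted p = 0.787) did not pass at 0 h.

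After transcription was blocked, KLF10, KLF11 and KLF16 lost the most transcript in controls and KLF6 the least. On the ERCC scale 7 of 8 members were lower at 1.5 h in controls, as were 74.6% of all genes, and 8 of 8 at 3.5 h, as were 81.1%. The median log2 change at 3.5 h was -2.32 over the members and -1.14 over all genes. The change was -2.79 ± 0.27 for KLF10, -2.77 ± 0.27 for KLF11 and -2.72 ± 0.22 for KLF16, and between 6.18% and 6.87% of genes fell further than each of them. KLF12 fell by 2.40, KLF7 by 2.25, KLF13 by 2.05 and KLF3 by 1.47 on the log2 scale. KLF6 had a change of -0.82 ± 0.22 (adjusted p = 3.15e-04) that was smaller than that of 67.0% of genes.

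In knockdowns 8 of 8 members were lower at 1.5 h, as were 47.4% of all genes, and 8 of 8 at 3.5 h, as were 97.3%, so that the last count is near the background. The median change at 3.5 h was -2.03 over the members and -1.47 over all genes. The members spread less than in controls, from -1.69 for KLF12 and -1.74 for KLF6 to -2.29 for KLF11 and -2.35 for KLF16. The count at 1.5 h rested on replicate 1 of the knockdown at 0 h, since without it KLF13 and KLF16 passed and the other 6 did not (2 of 8). The count at 3.5 h was 8 of 8 without that replicate as well. The shares of all genes called without it are not given here. Under TMM scaling the members lower at 1.5 h were 4 in controls, beside 15.2% of all genes, and 1 in knockdowns, beside 8.05%. At 3.5 h they were 7 in controls, beside 34.6%, and 5 in knockdowns, beside 22.8%, and KLF6 in controls was not lower (0.34, adjusted p = 0.0532).

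The share of transcript left at 3.5 h shows the same by library. For KLF6 the 3 control libraries held 53.2%, 56.4% and 59.6% of the mean level at 0 h, and the knockdowns 32.0%, 33.7% and 23.9%. These groups did not overlap, and the knockdowns were the lower. For KLF12 controls held 14.6%, 23.5% and 18.8% and knockdowns 32.1%, 34.0% and 26.5%, so that here the knockdowns were the higher and again apart. For KLF7 the values were 18.7%, 25.9% and 18.7% in controls and 28.9%, 29.5% and 24.0% in knockdowns, which overlapped. Means for the rest were 36.1% in controls and 26.4% in knockdowns for KLF3, 14.4% and 20.7% for KLF10, 14.7% and 20.4% for KLF11, 23.9% and 23.2% for KLF13, and 15.2% and 19.6% for KLF16. Each share is set against its own genotype's mean at 0 h, so the knockdown shares carry replicate 1 of that group. Shares without that replicate were not computed, so the overlaps and separations given here hold only with it included. They also leave out the spread of the 0 h libraries in both genotypes. For KLF6 those libraries ran from 70.6% to 132.4% of their own mean in controls and from 75.5% to 146.4% in knockdowns.

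**Figure D3:**
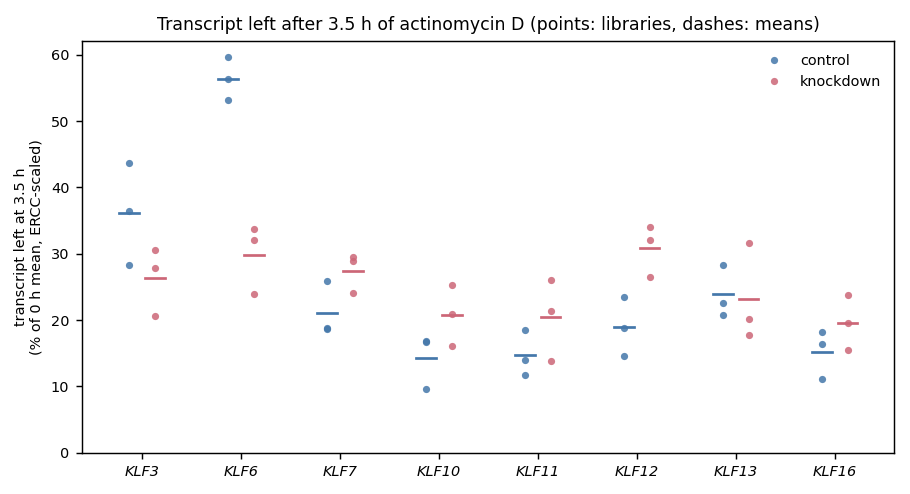
Transcript left after 3.5 h of actinomycin D as a percentage of the same genotype's mean at 0 h (y axis, ERCC-scaled, from 0) for the 8 members tested (x axis); points are single libraries, dashes are means of 3, blue is control and red knockdown. KLF6 stands out with 56.4% left in controls and 29.9% in knockdowns, and KLF12 has the reverse order, 19.0% and 30.9%.

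The decay slope, the change of the ERCC-scaled log2 level per hour over the 3 times, was compared between genotypes to ask which members decayed at another rate. It was steeper in the knockdown for KLF6, at -0.22 ± 0.06 in controls and -0.50 ± 0.06 in knockdowns. These slopes correspond to fitted half-lives of 4.48 and 1.999 h. KLF6 did not fall evenly in controls, whose mean share left was 60.4% at 1.5 h and 56.4% at 3.5 h. In knockdowns it was 65.1% and 29.9%, so the genotypes were close at 1.5 h and parted later. The changes from 0 to 1.5 h were -0.71 in controls and -0.62 in knockdowns. The difference of the KLF6 slopes, -0.28 ± 0.09, passed (adjusted p = 0.0202). Thus 1 of 8 members was called steeper, beside 11.0% of all genes, and 0 of 8 shallower, beside 2.40%. As a share of the members this is near the background. This call did not hold with DESeq2 (adjusted p = 0.0537). It was also lost when replicate 1 of the knockdown at 0 h was left out (-0.19, adjusted p = 0.155), and with 4 other libraries left out in turn, replicate 2 of the control at 0 h, replicates 2 and 3 of the control at 3.5 h and replicate 3 of the knockdown at 3.5 h. For KLF12 the difference was 0.20 ± 0.09 (adjusted p = 0.106), with half-lives of 1.45 and 2.04 h. The other differences were 0.15 ± 0.11 for KLF10, 0.13 ± 0.10 for KLF11, 0.10 ± 0.09 for both KLF7 and KLF16, -0.14 ± 0.09 for KLF3 and -0.03 ± 0.14 for KLF13, none past the threshold. The 403 genes called shallower and 1838 called steeper over the whole table show that calls were made at this sample size.

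Set against the typical transcript instead, 5 members (KLF7, KLF10, KLF11, KLF12 and KLF16) had shallower slopes in the knockdown, where 20.5% of all genes did, and KLF6 had a steeper one, where 11.1% did. The difference was 0.31 for KLF12 (adjusted p = 4.07e-05), 0.25 for KLF10, 0.23 for KLF11, 0.22 for KLF7, 0.21 for KLF16 and -0.16 for KLF6 (adjusted p = 0.0364). The median slope of all genes was -0.32 in controls and -0.42 in knockdowns on the ERCC scale. The change of the genotype difference from 0 to 3.5 h, a contrast of largely the same libraries and so no separate support, was called higher for 5 members and lower for 1 under TMM, beside 24.3% and 12.5% of all genes. Under ERCC scaling it was called higher for 0 and lower for 1, beside 2.68% and 9.51%.

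In the authors' deposited table, which gives 1 half-life per gene and genotype with no error, 7 of the 9 members had an entry. KLF6 had 3.998 h in control and 2.12 h in knockdown, a log2 ratio of -0.92 in the authors' deposited table, where the median of 12306 genes was 3.05 and 2.55 h with a ratio of -0.24. KLF12 had 1.57 and 2.26 h (0.52) in the authors' deposited table, and 96.1% of its genes had a lower ratio. KLF7 had 1.69 and 2.13 h, KLF10 1.30 and 1.65 h, KLF11 1.39 and 1.72 h and KLF16 1.34 and 1.527 h in the authors' deposited table, all longer in the knockdown, with ratios of 0.34, 0.34, 0.31 and 0.19. KLF3 had 1.99 and 1.91 h (-0.06) in the authors' deposited table. In controls the half-life of KLF10 was longer than that of 4.37% of genes in the authors' deposited table, of KLF16 5.03%, of KLF11 6.09%, of KLF12 10.9%, of KLF7 14.0%, of KLF3 22.9% and of KLF6 65.7%. These half-lives were made from the same libraries as the slopes above and are no second measurement.

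**Figure D4:**
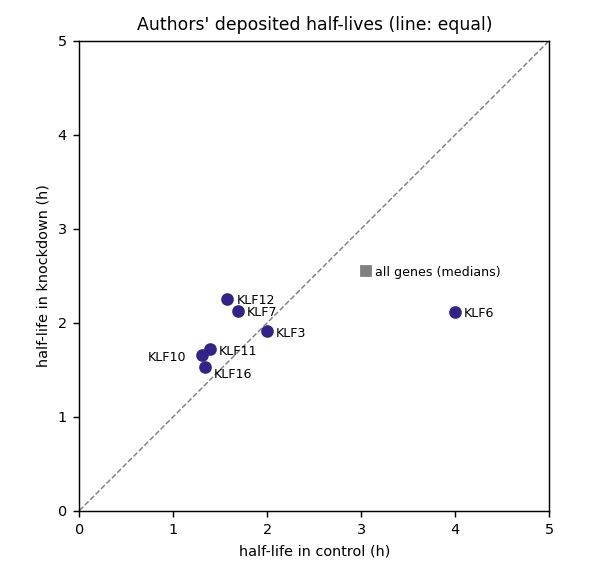
Half-life in knockdown (y axis, hours) against half-life in control (x axis, hours) for the 7 members in the authors' deposited table, with the medians of all genes as a grey square and equal values on the dashed line. KLF6 lies below the line at 3.998 and 2.12 h, and 19.8% of genes in the authors' deposited table had a lower ratio. KLF3 lies near the line, and the other 5 lie above it with control half-lives of 1.30 to 1.69 h.

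The genes whose 6 group means were most like a member's, after each was centred on its own mean, were sought among 10731 genes with a mean of at least 5 CPM. The root mean square difference on the log2 scale was 0.09 between KLF6 and CLIP3 and 0.09 between KLF6 and TIMP3. For KLF11 the nearest were KCTD1 (0.08) and EPHA2 (0.12), for KLF10 RIC1 (0.08) and ZBTB21 (0.08), and for KLF7 RIMKLA (0.04) and MAPK8IP2 (0.06). KLF12 was nearest to THAP1 (0.04) and SUPT7L (0.04), KLF3 to ZFP90 (0.04) and GABRQ (0.07), KLF16 to CBX2 (0.05) and ZBTB33 (0.06), and KLF13 to ARHGEF19 (0.04) and THG1L (0.05). For KLF9, with its few counts, IFNLR1 (0.13) and RGS14 (0.14) were nearest.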

How the data were processed

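Raw counts of reads were deposited for each gene and each ERCC RNA, 1 column per library. Per the submitters' processing notes, reads were handled with fastp (0.21.1), aligned to hg38 with HISAT2 (2.2.1) and SAMtools (1.12) and counted with featureCounts (2.0.3). The annotation release and strand setting were not given in the sources used here. The authors also deposited a normalised signal per gene and library, half-lives in hours and the log2 ratio of half-lives; the signal was not tested here. ERCC RNA was added after RNA purification, per the labels' protocols. No label says whether replicates are separate cultures; p-values therefore measure the spread between these libraries, which may be technical.

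Coordinates and exonic lengths came from GENCODE v29, which held 58308 of the identifiers, and promoters from RefSeq. Symbols came from a separate list of gene names and were found for 61757 identifiers. edgeR 4.0.16 in R 4.3.3 (filterByExpr, quasi-likelihood F test, 1 fit to 18 libraries, two-sided, Benjamini-Hochberg over 16760 genes, threshold 0.05) used TMM for genotype and ERCC sums for time. Shares of transcript left used ERCC sums. The fit was tested on simulated data whose spike-in scaling carried no noise, so that test does not cover the spread seen under ERCC scaling. DESeq2 1.42.0, other scalings, no filter, only the compared groups, a replicate block and each library left out were the alternatives. All members were named, with the cofactors SP1, SP3, SIN3A, CTBP1 and CTBP2, the 3 genes of smallest p in each pathway list, and KLF4 as a gene shared with naive markers; SP6 was named after its values were seen, and 1 gene of the TGF-beta list is not reported here. Members and lists were chosen with earlier results of these data known.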

Additional observations from a re-analysis of the deposited data

Results flagged for a closer look

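For 6 of the 8 members tested, the difference between knockdown and control itself changed between 0 and 3.5 h of actinomycin D. The test was edgeR's quasi-likelihood test of that change under TMM scaling. Over all genes tested, 24.3% were called higher and 12.5% lower, so the 1 member called lower is near the background. The log2 change was 1.11 ± 0.13 for KLF12 (adjusted p = 4.45e-07), 0.92 ± 0.26 for KLF10 (adjusted p = 0.00754), 0.88 ± 0.26 for KLF11 (adjusted p = 0.0104), 0.79 ± 0.11 for KLF7 (adjusted p = 4.36e-06) and 0.73 ± 0.18 for KLF16 (adjusted p = 0.00269). In each of these the knockdown gained on the control. For KLF6 the knockdown lost ground, by -0.53 ± 0.19 (adjusted p = 0.0351). Under ERCC scaling KLF6 alone passed (-0.92, adjusted p = 0.0235), beside 2.68% of all genes called higher and 9.51% lower. On that scale KLF12 was 0.71 (adjusted p = 0.0864). The KLF6 call under TMM was lost with any of 6 of 12 libraries left out, where it ran from -0.64 to -0.34.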

How the results depend on the processing

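Counts of members called depended most on the scaling. Under ERCC scaling the members higher and lower in the knockdown numbered 2 and 3 at 0 h (5.58% and 64.1% of all genes). At 1.5 h they numbered 4 and 2 (8.20% and 49.7%), and at 3.5 h 3 and 3 (4.71% and 71.7%). On that scale 0 members were called as gaining on the control by 3.5 h, near the 2.68% of all genes. Of all calls at 0 h, 45.7% were in the higher direction under TMM, 8.01% under ERCC scaling and 53.1% with only the compared groups. Differences whose sign turned under ERCC scaling were those of KLF3 (-0.11 at 0 h, -0.56 at 3.5 h), SIN3B (-0.23) and TGIF1 (-0.063) at 0 h, KLF12 (-0.44 at 1.5 h, -0.15 at 3.5 h), KLF6 (-0.024) and KLF13 (-1.01) at 3.5 h, and the change of the genotype difference of KLF13 (-0.082). With TMM in place of ERCC scaling, members lower at 1.5 h numbered 4 in controls (15.2% of all genes) and 1 in knockdowns (8.05%, so near the background). In knockdowns 5 were lower at 3.5 h (22.8% of all genes). Shallower slopes in the knockdown were called for 5 members (20.5% of all genes). KLF6 in controls at 3.5 h (0.34), KLF7 (0.017) and KLF12 (0.017) in knockdowns at 1.5 h and the slope difference of KLF13 (0.062) turned sign. With only the compared groups 4 members were lower in knockdowns at 1.5 h, beside 4504 of 15901 genes tested. With DESeq2 0 members had a steeper slope in the knockdown, beside 1889 of 16760 genes tested. Small differences that turned sign were those of CTBP1 at 0 h (0.0051 without the filter, 0.029 with only the compared groups) and KLF13 at 3.5 h (-0.025 with DESeq2 size factors, -0.015 with only the compared groups).

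With 1 library left out in turn, members lower in the knockdown at 0 h numbered 1 to 2, members whose genotype difference fell 0 to 1, members with a steeper slope in the knockdown 0 to 1, and members lower in knockdowns at 1.5 h 2 to 9, KLF9 passing the filter in the last case. The shares of all genes called in these fits are not given here. In these fits KLF13 ran from -0.55 to 0.017 at 0 h, from -0.18 to 0.18 at 3.5 h and from -0.095 to 0.028 in its slope difference, CTBP1 from -0.077 to 0.050 at 0 h, KLF16 from -0.12 to 0.058 at 3.5 h, and the change of the genotype difference of KLF3 from -0.12 to 0.073. The cause of these changes was not tested. Deviations of libraries with the same replicate number had a median r of -0.02 over 45 pairs, from -0.29 to 0.22. With different numbers it was 0.005 over 90 pairs, from -0.37 to 0.37. This showed no pairing by number, but with 3 libraries a group and all groups pooled it cannot exclude one. With a replicate block the counts at 0 h were 5 and 1, and 86 of 86 single-gene results kept their direction and their side of the threshold. Depth limits KLF9 and KLF13.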
